A study of Homo sapiens with 6 samples.

Results

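The mitochondrial ribosomal protein genes are the nuclear genes with an MRPL or MRPS symbol. They were chosen by symbol alone, as every gene written MRPL or MRPS followed by a number and an optional letter from A to C, with no requirement on expression. The rule found 77 genes among the 26364 genes of the table, 48 MRPL and 29 MRPS. All 77 were matched by symbol or synonym in RefSeq, and they lie on 21 chromosomes. The RNA came from MV4-11, a human cell line established from an acute myeloid leukaemia, which carries an internal tandem duplication of the receptor tyrosine kinase gene FLT3. The 22d group held 3 libraries from cells exposed for 18 hours to 22d, known as an inhibitor of the deacetylase HDAC8, at a labelled concentration of 10 nM that was not checked. The DMSO group held 3 libraries from cells given the vehicle for the same 18 hours, and both groups carry the FLT3 duplication. All 6 libraries are of 1 cell line, and the labels do not say whether replicates were separate cultures, so a p-value here reflects the spread of these 6 libraries alone, and that spread may be technical.

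The mitochondrial ribosome translates the few proteins encoded in mitochondrial DNA, all of them subunits of the oxidative phosphorylation complexes. Its RNA is made inside the organelle, whereas each of its proteins is encoded in the nucleus, made in the cytosol and imported. Some of these proteins descend from bacterial ribosomal proteins and others exist only in mitochondrial ribosomes, and acute myeloid leukaemia cells are known to be sensitive to blocked mitochondrial translation.

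Recovered reads in genes numbered between 20070076 and 23749257 per 22d library and between 19995430 and 23353064 per DMSO library. Along the first principal component of all tested genes, which held 80.5% of the variance, 22d replicate 1 lay at -64.3, further from the DMSO libraries than 22d replicates 2 and 3 at -39.9 and -44.2. 22d replicate 3 had reads in 19285 genes, against 16268 to 17055 in the other libraries. All 11 myeloid markers averaged 10 normalized counts or more, with a summed level of 52410 to 64030 in 22d libraries and 79590 to 99560 in DMSO libraries. Without LYZ, the lysozyme gene, the sums were 41010 to 44540 in 22d libraries and 40050 to 49290 in DMSO libraries, and of the 11 markers 4 were called higher (ANPEP, CSF1R, ITGAM and FLT3), 2 lower (LYZ and MPO) and 5 not called. Of 19 markers of T, B, erythroid, epithelial and fibroblast cells, 4 did so, with sums over all 19 of 425 to 562 in 22d libraries and 295 to 369 in DMSO libraries. The part of these shifts in the results was not tested.

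Promoters of 6 members are shown because they belong to the member with the largest fall (MRPL12), to the called members that fell most among those holding an NRF1, ETS or YY1 word (MRPL17, MRPL20 and MRPL52), to a member that starts head to head with another (MRPL46), and to the member with the highest fold change (MRPL45). Each runs from 250 bases before to 50 bases after the RefSeq start on build GRCh38.p14, 5′ to 3′ on the gene's own strand. Capitals mark exact matches, on either strand, to 5 words: GCGCATGCG (NRF1), CCGGAAGT (ETS factors), CACGTG (E-box), AAGATGGCG (YY1) and GGGCGG (SP1). Matches to different words did not overlap in these 6 windows.
MRPL12, plus strand, chr17:81703117-81703416: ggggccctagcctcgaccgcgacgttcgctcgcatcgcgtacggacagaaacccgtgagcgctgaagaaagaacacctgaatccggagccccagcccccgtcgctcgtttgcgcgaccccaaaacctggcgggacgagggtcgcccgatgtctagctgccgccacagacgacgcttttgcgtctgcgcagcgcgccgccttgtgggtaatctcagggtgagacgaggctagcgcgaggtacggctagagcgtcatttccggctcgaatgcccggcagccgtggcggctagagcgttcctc
MRPL17, minus strand, chr11:6683291-6683590: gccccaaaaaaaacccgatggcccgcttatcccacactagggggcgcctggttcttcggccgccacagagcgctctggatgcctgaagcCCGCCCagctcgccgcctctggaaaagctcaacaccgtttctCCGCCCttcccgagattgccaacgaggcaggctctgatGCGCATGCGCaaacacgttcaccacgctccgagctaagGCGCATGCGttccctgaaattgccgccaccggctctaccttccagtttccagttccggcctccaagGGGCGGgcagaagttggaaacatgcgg
MRPL20, minus strand, chr1:1407244-1407543: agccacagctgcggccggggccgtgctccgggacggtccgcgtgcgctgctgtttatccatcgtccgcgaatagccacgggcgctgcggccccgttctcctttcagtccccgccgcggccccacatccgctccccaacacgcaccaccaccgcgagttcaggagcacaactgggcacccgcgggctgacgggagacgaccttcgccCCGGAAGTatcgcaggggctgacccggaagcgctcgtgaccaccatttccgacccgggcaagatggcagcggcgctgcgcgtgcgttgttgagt
MRPL52, plus strand, chr14:22829637-22829936: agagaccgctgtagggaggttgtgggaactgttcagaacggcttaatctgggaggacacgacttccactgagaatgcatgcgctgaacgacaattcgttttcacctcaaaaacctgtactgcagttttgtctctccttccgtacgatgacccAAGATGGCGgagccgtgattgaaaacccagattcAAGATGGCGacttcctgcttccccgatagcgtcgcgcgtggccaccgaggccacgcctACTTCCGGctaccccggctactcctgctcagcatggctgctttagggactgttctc
MRPL46, minus strand, chr15:88467339-88467638: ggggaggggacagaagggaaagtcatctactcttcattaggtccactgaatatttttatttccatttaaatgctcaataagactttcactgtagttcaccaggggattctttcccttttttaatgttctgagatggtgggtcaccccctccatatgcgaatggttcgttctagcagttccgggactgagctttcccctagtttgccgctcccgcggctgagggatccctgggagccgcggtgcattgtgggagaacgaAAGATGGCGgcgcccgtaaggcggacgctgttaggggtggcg
MRPL45, plus strand, chr17:38296918-38297217: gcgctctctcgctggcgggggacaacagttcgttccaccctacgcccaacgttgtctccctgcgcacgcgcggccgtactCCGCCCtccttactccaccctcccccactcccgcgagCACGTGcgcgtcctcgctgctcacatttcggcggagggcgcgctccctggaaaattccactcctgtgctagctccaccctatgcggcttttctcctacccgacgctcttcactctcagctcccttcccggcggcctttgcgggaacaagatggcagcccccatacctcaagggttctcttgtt
The MRPL12 window, of the member with the largest fall, held none of the 5 words. The MRPL17 window held 3 NRF1 matches, of which a pair on opposite strands overlap, and 3 SP1 words, and MRPL20 held 1 ETS word close to its start. The MRPL52 window held 2 YY1 words and 1 ETS word, MRPL46 held 1 YY1 word, and MRPL45 held 1 E-box and 1 SP1 word.

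With 22d, 61 of the 76 tested members fell, none rose and 15 did not pass the test, in limma-trend on log2(normalized count + 1) with Benjamini-Hochberg adjustment over the 13297 genes that averaged 10 normalized counts or more. Over all tested genes, 29.6% were called lower and 28.5% higher. At an unadjusted p under 0.05, 1 member (MRPL45) was higher in limma, and edgeR's adjusted p called that 1 member higher, whereas DESeq2 and the authors' deposited table called 0. The median log2 fold change was -0.63 over the members and 0.01 over all tested genes. Of the members, 20 (13 MRPL and 7 MRPS) were called lower by at least 2-fold, against 9.87% of all tested genes. In 65 members every 22d value lay under every DMSO value, which held for 33.3% of all tested genes. In 1 member, MRPL45, every 22d value lay over every DMSO value, which held for 32.1% of all tested genes. Since the RNA is from bulk cultures, fewer cells of a type and less RNA per cell cannot be told apart.

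Read against the whole library, the members together took 0.359, 0.385 and 0.374% of the reads in genes in 22d libraries, against 0.561, 0.548 and 0.556% in DMSO libraries. The 22d libraries were all lower, and the groups did not overlap. Genes of the cytosolic ribosome, which share none of these proteins, took 11.2, 11.8 and 10.9% of the reads in 22d libraries, against 11.1, 10.6 and 10.7% in DMSO libraries, and these groups overlapped.

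**Figure D1:**
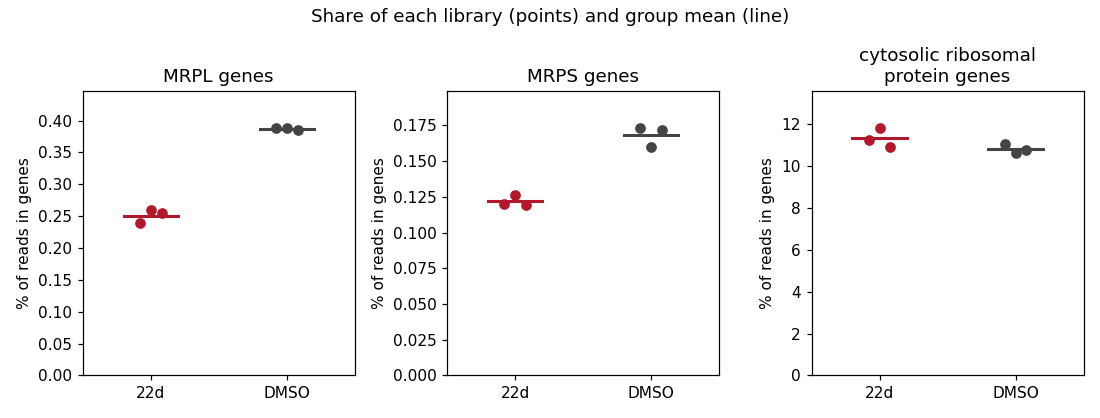
Share of each library's reads in genes (percent, y axis) taken by MRPL genes, MRPS genes and cytosolic ribosomal protein genes, with a point for each of 3 libraries per group and a line at the group mean. The 22d points lie under the DMSO points for MRPL genes (0.239 to 0.259% against 0.385 to 0.388%) and for MRPS genes, and the groups overlap for cytosolic ribosomal protein genes.

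The size of the members' fall depended on the scaling. With each library scaled to its own total, the median of all tested genes moved to 0.225 and the higher share of all calls to 65.6%, against 49.0% with the deposited size factors. The members' median was then -0.41, with 43 called lower and 3 called higher. All tested genes together gave 8044 calls in this setting. The 29.6% of all tested genes called lower belongs to the deposited size factors. It is no background for the members' counts with library totals.

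Large-subunit members fell somewhat more often than small-subunit members in this table, but not among those with a bacterial counterpart. Of these, by place in the ribosome, 90% of large-subunit and 93.3% of small-subunit members were called lower, with medians of -0.88 and -0.57. By symbol, 41 of 48 MRPL genes were called lower, with a median log2 fold change of -0.74, and in 44 every 22d value lay under every DMSO value. Of the 28 tested MRPS genes, 20 were called lower, with a median of -0.44, and in 21 the 22d values all lay under the DMSO values. Both shares lay above the 29.6% of all tested genes, and the difference between subunits is a description of these genes, without a test. With library totals, for which the 29.6% does not hold, 31 MRPL genes (median -0.52) and 12 MRPS genes (median -0.22) were called lower. The MRPL genes took 0.239, 0.259 and 0.254% of reads in 22d libraries, against 0.388, 0.388 and 0.385% in DMSO libraries. The MRPS genes took 0.120, 0.126 and 0.120% in 22d libraries, against 0.173, 0.160 and 0.172% in DMSO libraries.

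Symbols and structure part ways for 3 members. In the structure of the human mitochondrial ribosome, MRPS30 (mL65) and MRPS18A (mL66) sit in the large subunit, and MRPS36 belongs to the alpha-ketoglutarate dehydrogenase complex. By place, 42 of 50 large-subunit members were called lower (median -0.68) and 19 of 25 tested small-subunit members (median -0.45). The summed level of the large subunit over that of the small subunit was 2.27, 2.27 and 2.39 in 22d libraries, against 2.44, 2.65 and 2.43 in DMSO libraries. The 22d ratios were all lower, with the nearest libraries at 2.39 with 22d and 2.43 with DMSO. A summed level weighs the most expressed genes most. In DMSO libraries these were MRPL4 and MRPL12 for the large subunit, with means of 10379 and 5894 normalized counts. Their means in 22d libraries were 4303 and 1808. The ratio was not recomputed without these genes, so a shift shared by the members of a subunit cannot be read from it.

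Proteins with a bacterial counterpart were called lower in 41 of 45 tested genes, with a median log2 fold change of -0.84. Members named as mitochondria-specific were called lower in 20 of 30, with a median of -0.59. The split followed the names of the proteins in the structure of the ribosome. By those names MRPS18A (mL66) and MRPS18B (mS40), paralogs of the homolog MRPS18C, counted as mitochondria-specific. The split ran the same way within each subunit by place. In the large subunit 27 of 30 bacterial homologs (median -0.88) and 15 of 20 mitochondria-specific members (median -0.65) were called lower. In the small subunit 14 of 15 bacterial homologs (median -0.57) and 5 of 10 mitochondria-specific members (median -0.33) were called lower. With library totals, 27 of the 45 homologs (median -0.62) and 16 of the 30 mitochondria-specific members (median -0.37) were called lower.

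**Figure D2:**
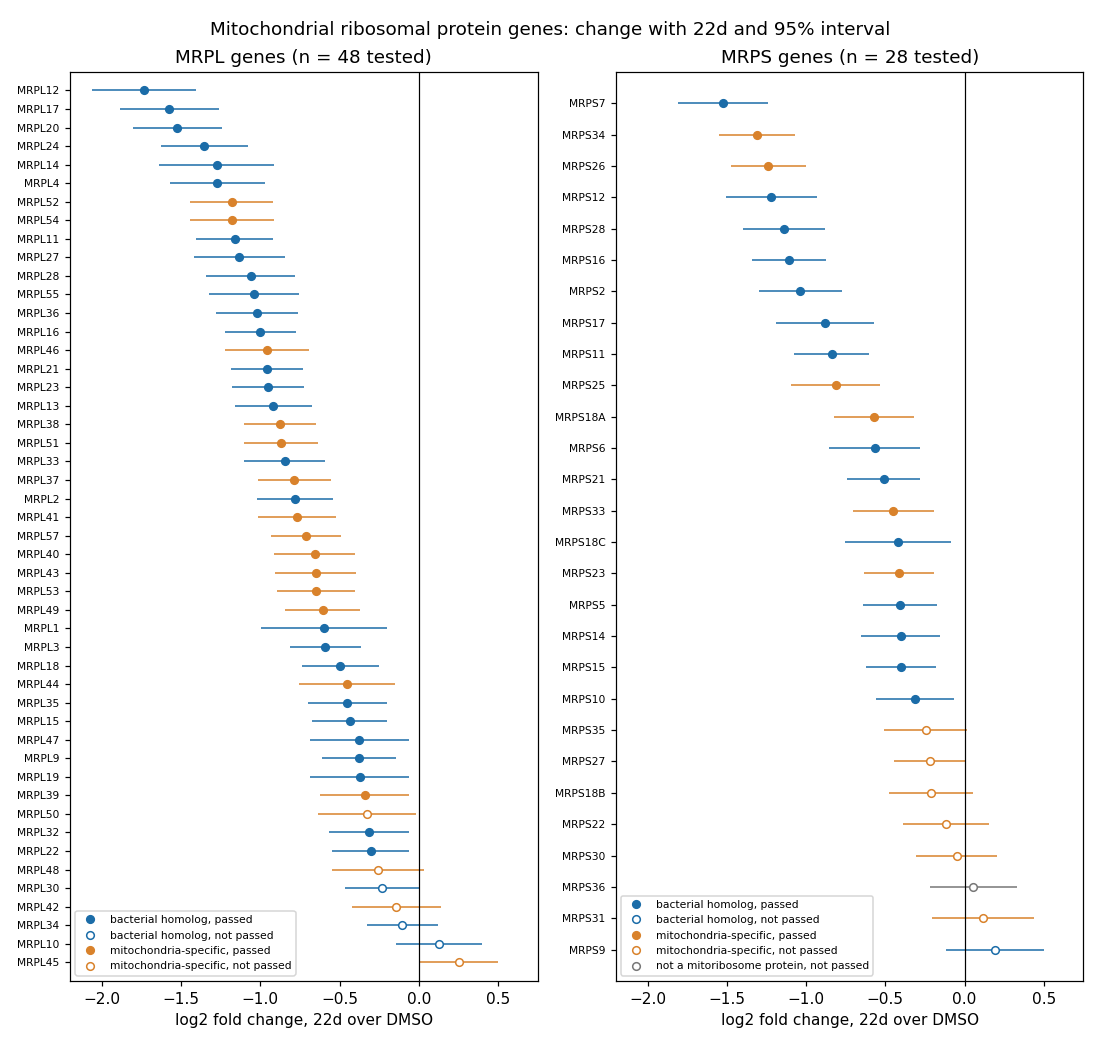
Log2 fold change of 22d over DMSO (x axis) with its 95% interval for each tested member (y axis), MRPL genes on the left and MRPS genes on the right, coloured by origin and filled where the adjusted p was under 0.05. The members lie between -1.73 for MRPL12 and 0.25 for MRPL45, and most open points are mitochondria-specific members.

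The stalk of the large subunit, which recruits translation factors, held both the largest fall and a member that did not pass. MRPL12 (bL12m; chr17:81703367-81707517, plus strand, RefSeq on GRCh38.p14) forms the stalk arms and is also known to bind the mitochondrial RNA polymerase. It had 1321, 2062 and 2042 normalized counts in 22d libraries, against 5958, 6201 and 5521 in DMSO libraries. All 3 22d libraries were far below all DMSO libraries, with the first lowest, and the log2 fold change was -1.73 (SE 0.15, adjusted p = 1.16e-06). MRPL10 (uL10m; chr17:47823272-47831541), the protein that anchors MRPL12 to the ribosome, had 1624, 1282 and 1232 normalized counts in 22d libraries, against 1252, 1351 and 1165 in DMSO libraries. Those groups overlapped, and its log2 fold change was 0.13 with a 95% interval of -0.14 to 0.40 (adjusted p = 0.405). The MRPL12 count over the MRPL10 count was 0.813, 1.61 and 1.66 in 22d libraries, against 4.76, 4.59 and 4.74 in DMSO libraries. MRPL11 (uL11m), at the base of the stalk, had 886, 916 and 871 normalized counts in 22d libraries, against 2265, 1879 and 1867 in DMSO libraries. It fell in every 22d library, with a log2 fold change of -1.16 (SE 0.11, adjusted p = 2.50e-06).

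The other large-subunit members with large falls are known from several sites of the subunit. MRPL17 (bL17m; chr11:6680385-6683340), near the tunnel exit, had 533, 810 and 709 normalized counts in 22d libraries, against 2123, 2072 and 1846 in DMSO libraries. The groups lay far apart, at a log2 fold change of -1.57 (SE 0.15, adjusted p = 1.73e-06). MRPL20 (bL20m), whose bacterial counterpart is needed early in assembly, had 546, 736 and 748 normalized counts in 22d libraries, against 1996, 1921 and 1862 in DMSO libraries. Its log2 fold change was -1.52 (SE 0.13, adjusted p = 1.01e-06), again with 22d replicate 1 lowest. MRPL24 (uL24m), another protein at the tunnel exit, had 800, 1101 and 1021 normalized counts in 22d libraries, against 2547, 2522 and 2334 in DMSO libraries, and its log2 fold change was -1.35.

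MRPL14 (uL14m), on the face that meets the small subunit, had 803, 1243 and 1273 normalized counts in 22d libraries, against 2675, 2994 and 2255 in DMSO libraries. The groups did not overlap, and the log2 fold change was -1.28 (SE 0.17, adjusted p = 3.12e-05). MRPL4 (uL4m), which lines the tunnel, had 3564, 4426 and 4919 normalized counts in 22d libraries, against 9520, 12312 and 9304 in DMSO libraries. It fell by 1.27 on the log2 scale (adjusted p = 6.96e-06). MRPL3 (uL3m), which reaches toward the catalytic centre, fell less, by 0.59 (adjusted p = 3.30e-04), with 1711, 1955 and 1758 normalized counts in 22d libraries, against 2863, 2553 and 2747 in DMSO libraries. MRPL36 (bL36m), a small zinc-binding protein added late in assembly, fell by 1.02, with 463, 494 and 463 normalized counts in 22d libraries, against 995, 1042 and 852 in DMSO libraries.

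The mitochondria-specific large-subunit proteins MRPL44 and MRPL45 gave different values. MRPL44 (mL44), which has a ribonuclease III fold, had 896, 835 and 790 normalized counts in 22d libraries, against 1436, 1037 and 1018 in DMSO libraries. The groups did not overlap and the log2 fold change was -0.45 (adjusted p = 0.0134), but without DMSO replicate 1, the highest library, it was -0.29 (adjusted p = 0.09). MRPL45 (mL45; chr17:38297168-38323211), which holds the ribosome to the inner membrane, had 1347, 1169 and 1169 normalized counts in 22d libraries, against 1132, 986 and 975 in DMSO libraries. It had the highest log2 fold change of the members, 0.25, and did not pass (adjusted p = 0.0744). It passed as higher in edgeR's quasi-likelihood test on whole reads (0.28, adjusted p = 0.0459), with quantile normalization (0.37) and with library totals (0.47). A pseudogene, MRPL45P2, had 174, 126 and 146 normalized counts in 22d libraries, against 112, 125 and 127 in DMSO libraries, and reads could be split between such copies.

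**Figure D3:**
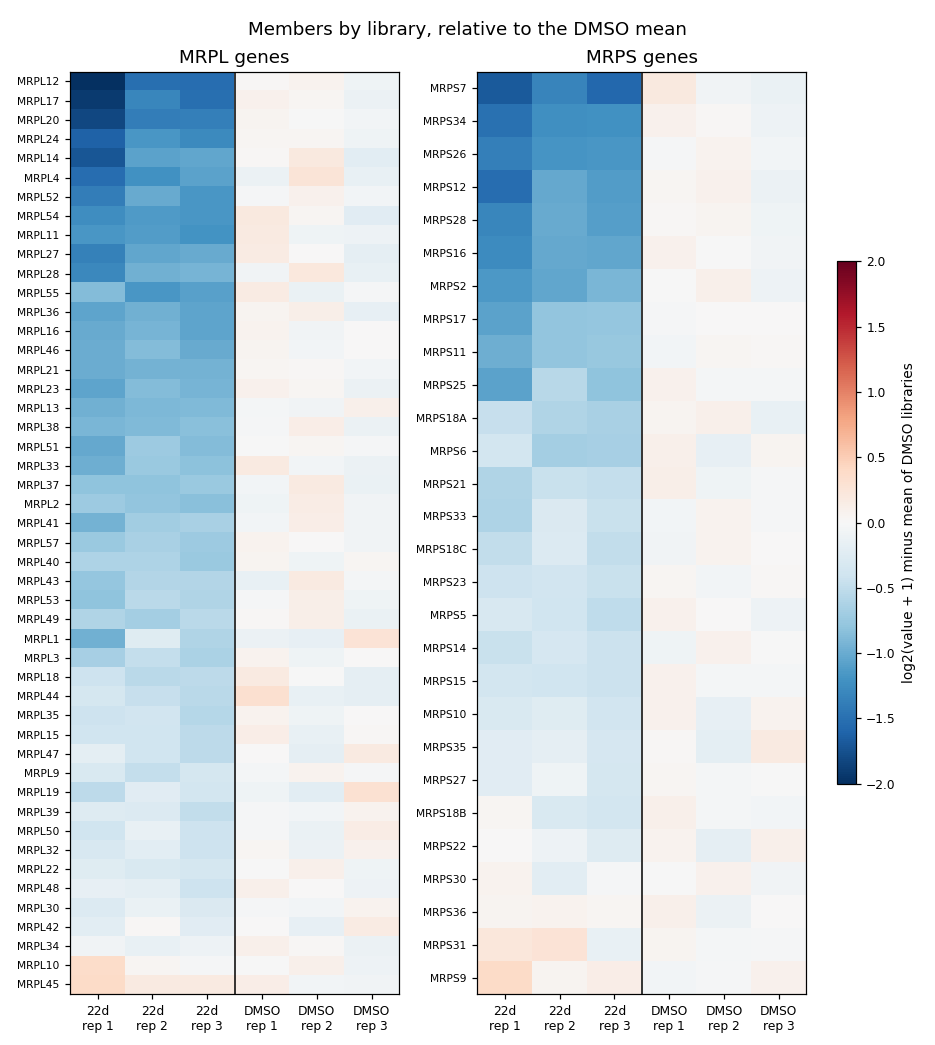
Log2(normalized count + 1) of each tested member (rows) in each library (columns), as the difference from the mean of the 3 DMSO libraries, MRPL genes on the left and MRPS genes on the right. Blue cells fill the 22d columns from the top, darkest in 22d replicate 1, and the palest rows are members such as MRPL10, MRPL45, MRPS30 and MRPS9.

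Among the MRPS genes the largest fall was that of MRPS7 (uS7m; chr17:75261879-75266376), a protein of the head of the small subunit. It had 467, 601 and 507 normalized counts in 22d libraries, against 1724, 1436 and 1379 in DMSO libraries. Its groups lay far apart, at a log2 fold change of -1.53 (SE 0.13, adjusted p = 1.02e-06). MRPS12 (uS12m), at the decoding centre, had 1154, 1632 and 1534 normalized counts in 22d libraries, against 3398, 3518 and 3050 in DMSO libraries, and a log2 fold change of -1.22 (adjusted p = 6.50e-06). Its exons share 21.5% of their bases with SARS2 on the other strand, which was also called lower, and the library kit is known as a non-directional one, so their reads cannot be told apart there. MRPS34 (mS34) had 1594, 1929 and 1940 normalized counts in 22d libraries, against 4757, 4583 and 4182 in DMSO libraries. With a log2 fold change of -1.31 (SE 0.11, adjusted p = 9.07e-07), it had the smallest p of the members.

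MRPS26 (mS26) had 667, 767 and 769 normalized counts in 22d libraries, against 1702, 1824 and 1666 in DMSO libraries, and fell by 1.24 on the log2 scale. MRPS28 (bS1m) had 429, 529 and 494 normalized counts in 22d libraries, against 1080, 1109 and 1005 in DMSO libraries, and fell by 1.14. MRPS16 (bS16m) had 1370, 1613 and 1585 normalized counts in 22d libraries, against 3490, 3238 and 3101 in DMSO libraries, and fell by 1.11. In each of these 3 genes the 22d libraries were all below the DMSO libraries and 22d replicate 1 was lowest.

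The MRPS18 paralogs, of which the human genome has a trio, occupy different sites and differed in their values. MRPS18A, the large-subunit copy, had 845, 768 and 740 normalized counts in 22d libraries, against 1205, 1253 and 1049 in DMSO libraries, and fell by 0.57 on the log2 scale (adjusted p = 9.44e-04). Its exons share 56.9% of their bases with RSPH9 on the other strand, a low row of 15.1 to 20.5 normalized counts in 22d libraries and 4.39 to 11.4 in DMSO libraries. MRPS18C (bS18m), which holds the site of the bacterial protein, had 141, 165 and 141 normalized counts in 22d libraries, against 189, 209 and 201 in DMSO libraries. Its log2 fold change was -0.42 (adjusted p = 0.0313), and it passed in 7 of 16 alternative settings. It was lost without 22d replicate 1 or 3 and without any 1 of the DMSO replicates. It was also lost with no filter, with library totals, with the replicate block and in the authors' deposited test (adjusted p = 0.0575). MRPS18B (mS40) had 1761, 1394 and 1334 normalized counts in 22d libraries, against 1842, 1667 and 1650 in DMSO libraries. The groups overlapped through 22d replicate 1, and the log2 fold change of -0.21 did not pass (adjusted p = 0.158); without that library it was -0.33 (adjusted p = 0.0164).

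MRPS30 and MRPS36, which structure places elsewhere than their symbol, did not pass the test. MRPS30 had 877, 720 and 819 normalized counts in 22d libraries, against 824, 881 and 790 in DMSO libraries, with a log2 fold change of -0.05 and a 95% interval of -0.30 to 0.21 (adjusted p = 0.735). MRPS36 had 366, 369 and 362 normalized counts in 22d libraries, against 378, 326 and 354 in DMSO libraries, with a log2 fold change of 0.05 and a 95% interval of -0.22 to 0.33 (adjusted p = 0.734). In both genes the groups overlapped.

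Besides MRPL10, MRPL45, MRPS18B, MRPS30 and MRPS36, the members that did not pass were 5 MRPL and 5 MRPS genes. For MRPL50, MRPL48, MRPL30, MRPL42 and MRPL34 the log2 fold changes were -0.33, -0.26, -0.23, -0.14 and -0.11. For MRPS35, MRPS27, MRPS22, MRPS31 and MRPS9 they were -0.25, -0.22, -0.12, 0.12 and 0.19. MRPL50, MRPL48, MRPL30 and MRPS27 missed the threshold although every 22d value lay under every DMSO value. The exons of MRPL34 share 16.5% of their bases with ABHD8 on the other strand, which was called higher at 1.33. Reads from that stretch cannot be told apart. MRPS31 and MRPL42 have pseudogene copies, of which MRPS31P5 had a log2 fold change of 0.23 (adjusted p = 0.298) and MRPL42P5 was too low to be tested. MRPS9 passed as higher only with library totals (0.41), and so did MRPL10 (0.35).

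MRPS24 (uS3m) was the member under the filter on low counts. It had 2, 2 and 2 reads in 22d libraries, against 0, 0 and 1 in DMSO libraries. Of its exonic bases, 77% are shared on the same strand with the read-through gene URGCP-MRPS24, whose own row was 0 in all 6 libraries. The annotation and strand setting behind the counts are not given, and how shared reads were counted was not tested. These rows may therefore not measure the transcript of MRPS24.

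The 22d libraries differed among themselves. Among the 61 members called lower, 22d replicate 1 was the lowest of the 22d libraries in 37, replicate 2 in 6 and replicate 3 in 18. Among the 20 members with the largest falls the counts were 17, 1 and 2. Without 22d replicate 1, 60 members were called lower, with a median of -0.62, and without 22d replicate 3, 54 were.

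Members whose gene span overlapped another gene of the table, in RefSeq or in GENCODE, numbered 28. Of the other 49, 37 were called lower, with a median log2 fold change of -0.51. The antisense gene MRPL23-AS1 had 46.9, 36.5 and 71.4 normalized counts in 22d libraries, against 2.28, 20.7 and 18.6 in DMSO libraries. It was called higher, at a log2 fold change of 2.18 (adjusted p = 0.00632), while MRPL23 itself was called lower, at -0.95.

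Many members start head to head with another gene, with start sites within 1000 bases on opposite strands. There were 27 such pairs with both genes tested, involving 28 members, and in 1 of them both genes were members. MRPL46 (mL46) had 284, 309 and 283 normalized counts in 22d libraries, against 588, 546 and 570 in DMSO libraries. Its partner MRPS11 (uS11m), which starts 320 bases away, had 759, 862 and 877 normalized counts in 22d libraries, against 1430, 1528 and 1507 in DMSO libraries. Both fell, by 0.96 and 0.84 on the log2 scale.

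In 13 of the 27 pairs both genes were called lower, and in 4 the member was lower and its partner higher. Over the partners, 14 were called lower, 6 higher and 7 not called, with a median log2 fold change of -0.32. The 14 include MRPS11, itself a member. Of all tested genes, 29.6% were called lower and 28.5% higher. No share is given for head-to-head pairs of other genes, so these counts are a description only. MRPL36 and NDUFS6, a subunit of respiratory complex I, start 27 bases apart and were both lower, at -1.02 and -1.27. MRPL2 was lower at -0.78 and its partner KLC4, a kinesin light chain, higher at 1.11, with starts 232 bases apart. MRPL14 was lower at -1.28 and its partner TMEM63B, an ion channel gene, higher at 0.85. MRPL47 and NDUFB5, another complex I subunit, start 148 bases apart and were lower at -0.38 and higher at 0.44. For MRPS18C and the helicase gene HELQ the values were -0.42 and 0.49.

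**Figure D4:**
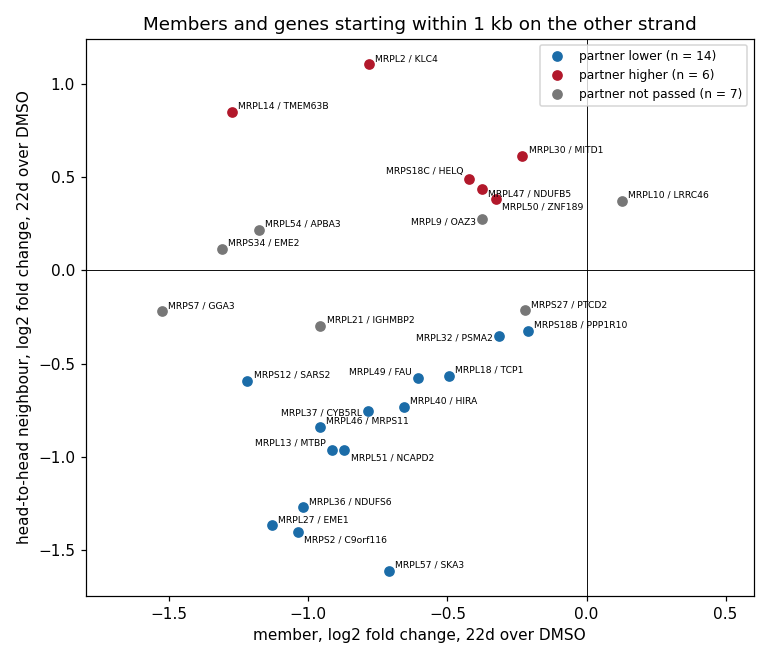
Log2 fold change of 22d over DMSO for each member (x axis) and for the gene that starts within 1000 bases on the other strand (y axis), with 1 point for each of 27 pairs, coloured by the partner's call. The 13 pairs with both genes lower fill the lower left, and 6 partners called higher lie above the horizontal line.

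RefSeq promoters of the length shown above were held for 69 of the 77 members. The YY1 word was in 18.8% of them, against 3.93% of the promoters of other tested genes and 1.85% of all 27305 promoters. The ETS word was in 15.9% of member promoters, against 9.03% of other tested and 4.44% of all promoters. The NRF1 word was in 4.35%, against 3.89% and 2.10%, the E-box word in 10.1%, against 10.3% and 7.44%, and the SP1 word in 60.9%, against 69.7% and 44.6%. Of the 12 tested members with the YY1 word, 8 were called lower (median -0.32), against 46 of 56 without it (median -0.65). Of the 11 with the ETS word, 10 were called lower (median -0.88), against 44 of 57 without it (median -0.57). A match says only that the letters are in the window.

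Across the 76 tested members, the log2 fold change ran against the DMSO level per kilobase of exon, with a Spearman rho of -0.57, against -0.441 over the 11708 tested genes with an exon length. The DMSO libraries enter both measures, and genes are not independent replicates. Per kilobase, the DMSO level was highest for MRPL12, at 5733 normalized counts, followed by MRPS34 at 4313 and MRPL4 at 4127. In 22d libraries these same genes averaged 1759, 1742 and 1711 normalized counts per kilobase.

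Genes that work with the mitochondrial ribosome were described beside the members. Of the 6 proteins of the ribosome without an MRP symbol, 5 were called lower (median -0.83). GADD45GIP1 (mL64) had 1129, 1295 and 1164 normalized counts in 22d libraries, against 3061, 2743 and 2741 in DMSO libraries, and fell by 1.25 on the log2 scale. CHCHD1 (mS37) fell by 1.10, and DAP3 (mS29), a GTP-binding protein of the small subunit, had a log2 fold change of -0.05 (adjusted p = 0.700).

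Of 26 assembly and ribosomal RNA modification genes, 18 were called lower and 1 higher (median -0.49). The ribosome-binding factor RBFA and the methyltransferase gene MRM1 were lowest, both at a log2 fold change of -1.26. The GTPase gene NOA1 was the one called higher, at 0.87 (adjusted p = 2.50e-04), with 2676, 2409 and 2647 normalized counts in 22d libraries, against 1155, 1833 and 1324 in DMSO libraries. Of 13 genes for mitochondrial DNA upkeep, transcription and RNA processing, 10 were called lower (median -0.63), led by the helicase gene C10orf2 (TWNK) at -1.46 and the RNase Z gene ELAC2 at -1.17.

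Genes of mitochondrial translation were mixed, in a list of translation factors with genes that handle mitochondrial messengers (LRPPRC, SLIRP, PNPT1, SUPV3L1 and MTPAP) and OXA1L. Of 20 such genes, 9 were called lower and 3 higher (median -0.29). SLIRP, an RNA-binding protein that stabilizes mitochondrial messengers, fell by 1.35 on the log2 scale, and the elongation factor gene TSFM fell by 1.31. The initiation factor genes MTIF2 and MTIF3 and the release factor gene MTRF1 were called higher, at 0.79, 0.52 and 0.65, and MTRF1 was lost without DMSO replicate 1 (adjusted p = 0.0543). MTIF2 had 1045, 879 and 775 normalized counts in 22d libraries, against 502, 423 and 652 in DMSO libraries.

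Of 80 tested cytosolic ribosomal protein genes, 15 were called lower and 2 higher, shares of 18.8% and 2.5%. Their median log2 fold change was -0.15, which turned to 0.07 with library totals and 0.11 with quantile normalization. Their lower calls numbered 7, 9, 8 and 8 without 22d replicate 1, 22d replicate 3, DMSO replicate 1 and DMSO replicate 2. The largest falls were in RPL39L, a paralog of RPL39, at -1.75, and in RPL17 at -1.28, a low row of 11.7 to 20.1 normalized counts in 22d libraries and 26.2 to 50.5 in DMSO libraries. RPS24 and RPL7 were called higher, at 0.43 and 0.35.

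**Figure D5:**
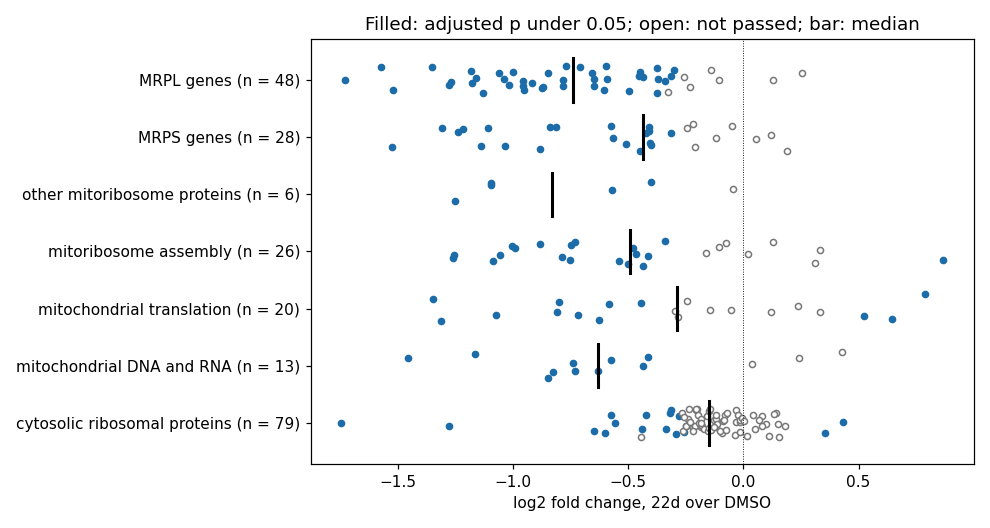
Log2 fold change of 22d over DMSO (x axis) for each tested gene (points, filled where the adjusted p was under 0.05) in 7 groups of genes (y axis), with a bar at each median; 1 Y-linked gene of the 80 cytosolic ones is not drawn. MRPL genes (median -0.74) and MRPS genes (median -0.44) lie left of cytosolic ribosomal protein genes, whose median of -0.15 turns positive with library totals or quantile normalization.

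HDAC8, which encodes the known target of 22d, had a log2 fold change of 0.05 (adjusted p = 0.74) at the RNA level.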

How the data were processed

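RNA of 6 libraries was sequenced with a NEBNext Ultra RNA kit. The submitters' processing notes name FastQC, cutadapt, STAR, HTSeq and DESeq2 and build hg38. Versions, annotation, filters and strand setting are not given in the sources used here. The deposited table holds, per the file headers, a normalized signal per library, which the authors made as a read count divided by a size factor: times that factor, 100% of values were whole within 0.001 of a read. It also holds the authors' mean signal, log2 fold change with its error, test score (fold change over error), p-value and adjusted p-value.

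Limma-trend 3.58.1 (R 4.3.3) was run on log2(value + 1), without a block, for the 13297 genes averaging 10 or more over the 6 libraries, and called genes at a Benjamini-Hochberg adjusted p under 0.05. The fitted fold change understates the change of low genes. Alternatives were pseudocount, filter, scaling, replicate block, leaving out each library, edgeR 4.0.16 and DESeq2 1.42.0 on the recovered whole reads, and the authors' deposited test. EdgeR called 7723 of the genes under this filter, against 7718 with limma. The limma step was tested on simulated data with few genes changed, in both directions, and with the true size factors reused. That setting differs from these data and does not bear on the choice of scaling. Members and lists were chosen with earlier results of these data known, so no test over a list was made. The members named with values were, per subunit, the 6 called members with the largest fall among those with a mean of at least 100, members chosen for their role, those under the filter and those not called; of each related list, the 2 called genes with the largest change in each direction were named. Strand, exon lengths and overlaps came from GENCODE 29, and symbols and promoters from RefSeq GRCh38.p14.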

Additional observations from a re-analysis of the deposited data

How the results depend on the processing

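Of the 61 members called lower, 43 were called lower in every one of 16 alternative settings. The count of members called lower was 43 with library totals, 55 with the replicate block, 58 with edgeR's quasi-likelihood test and 61 with DESeq2. It was 59 in the authors' deposited table and 53 to 60 when 1 library was left out. The labels do not say whether the replicate number pairs samples. Correlations of same-numbered deviations were -0.0255, -0.0183 and -0.102, and those of differently numbered libraries ran from -0.112 to 0.174. With 3 libraries per group these values cannot settle whether samples were paired. The calls held in fewest settings were those of MRPL39 (6 of 16), MRPS18C and MRPL47 (7 each) and MRPL19 (8).

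Library totals gave 3 members called higher (2 MRPL and 1 MRPS, 2 bacterial homologs and 1 mitochondria-specific), 12 MRPS genes lower and 27 homologs lower. Quantile normalization and edgeR each gave 1 higher, the MRPL gene MRPL45. Medians of members, large subunit, small subunit, homologs and mitochondria-specific members were -0.41, -0.52, -0.22, -0.62 and -0.37 with library totals, and -0.52, -0.59, -0.38, -0.71 and -0.47 with quantile normalization. With edgeR the members' median was -0.60 and that of the small subunit -0.40, and among the 49 members overlapping no other gene, a smaller set, 37 were lower with a median of -0.51. Leaving out 1 library gave medians between -0.68 and -0.62 for members, -0.51 and -0.43 for the small subunit, -0.87 and -0.78 for homologs and -0.64 and -0.54 for mitochondria-specific members, 0 to 1 transcription genes higher, and 1 to 2 cytosolic genes higher and 7 to 21 lower.

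Among assembly genes, higher calls numbered 3 with library totals and 2 with TMM or edgeR. Among the listed genes of mitochondrial translation they numbered 6 with library totals and 5 with quantile normalization. Among transcription genes, library totals gave 2. For cytosolic ribosomal protein genes, library totals and quantile normalization gave 17 and 23 higher, 8 and 8 lower, and medians of 0.0736 and 0.106, and no filter gave 8 lower. Members that changed sign, none of them called in that setting, were MRPS30 (0.171 with library totals, 0.0124 with quantile normalization, and -0.113 to 0.0289 when 1 library was left out, positive without 22d replicate 2), MRPS18B (0.0108 with library totals), MRPS36 (-0.00201 to 0.104 when 1 library was left out, negative without DMSO replicate 2), MRPS27 (0.000818 and 0.011 with library totals and quantile normalization), MRPL42 and MRPS22 (0.0794 and 0.103 with library totals) and MRPL34 (0.115 and 0.0722). The causes were not tested. With 3 libraries per group, standard errors of the members' log2 fold changes ran between 0.102 and 0.185.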
